A study of Mus musculus with 6 samples.

Results

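The genes described here are a set of TNF receptor superfamily members centred on Tnfrsf9, with a pair of their ligands, measured in cultured mouse marrow progenitors that have or lack miR-155. The set lists 10 genes: the receptors Tnfrsf9, Tnfrsf18, Tnfrsf4, Tnfrsf8, Tnfrsf14, Cd27, Tnfrsf1a and Tnfrsf1b, and the ligands Tnfsf9 and Tnfsf18. The set was chosen by the knockout against wild-type differences of these same arrays, in which Tnfrsf9 was 1 of the 4 genes, 0.0269% of those tested, called lower in the knockout. Tnfrsf9 was no longer called with any 1 of the 6 arrays left out, or with the first principal component's sides in the model. The members' differences are therefore given as a description, with no test. Of the 10 genes, 9 had a row with 1 gene symbol, out of 14860 genes tested. Cd27 had no such row and was not analysed here.

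All 6 arrays came from cultures of bone marrow cells of 12-week-old female C57Bl/6 mice treated with fluorouracil, which kills dividing cells and so enriches the marrow for progenitors. The cells of both groups carried MSCV retroviral constructs and overexpressed HOXA9 and Meis1, and both grew in DMEM with 15% calf serum (FCS), stem cell factor and interleukins 3 and 6. The groups differed in genotype: 3 arrays were from miR-155 knockout cells and 3 from cells without the knockout, called wild type here. The labels do not say whether marrow from several mice was pooled, and where nothing ties an array to an animal or a culture, the spread measured is that between arrays. The level of miR-155 itself was not analysed here, because no row carried its name or that of its host gene.

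TNF receptors are surface proteins that bind trimeric ligands of the TNF family and recruit TRAF adaptors, which activate NF-kB and MAP kinases. The costimulatory members, among them 4-1BB (Tnfrsf9), GITR (Tnfrsf18), OX40 (Tnfrsf4), CD30 (Tnfrsf8), HVEM (Tnfrsf14) and CD27, are best known for prolonging T cell responses, and 4-1BB is also carried by activated mast cells and other myeloid cells. The TNF receptors proper, TNFR1 (Tnfrsf1a) and TNFR2 (Tnfrsf1b), bind TNF, and TNFR1 also has a death domain. The microRNA deleted in the knockout lowers mRNAs that pair with its seed. It is shown for that reason, with the seed (bases 2 to 8 from the 5′ end) in capitals, as RefSeq gives it on GRCm38.p6 at chr16:84714143-84714165, plus strand.
mmu-miR-155-5p: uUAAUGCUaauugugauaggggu
Transcript sequences of the members were not used here, so pairing of this seed with their mRNAs was not tested.

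Values are log2 expression levels made by RMA, a method that subtracts background, gives the arrays a common distribution and combines the probes of a gene. A difference of 1 is a doubling, and levels of different genes are not compared, because each gene's probes respond differently. The median of the tested genes lay between 6.98 and 7.09 on the 6 arrays. As a rough mark of background, the 95th percentile of 718 olfactory receptor genes, which blood cells are not thought to use, was 5.98. Of the 9 measured members, 8 had a mean above this mark, and Tnfsf18 lay below it. The progenitor markers were present, with Myb at 11.89 in knockout and 11.85 in wild-type cells and Cd34 at 10.78 and 10.93. Hoxa9 differed by −0.07 (standard error 0.07; limma, adjusted p = 0.881) and Meis1 by −0.07 (standard error 0.08; limma, adjusted p = 0.907). Arrays fell on either side of the first principal component (37.21% of the variance) without regard to genotype: wild type 2 lay together with knockout 1 and knockout 2.

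Tnfrsf9 and Tnfrsf18 were lower in the knockout, and the other receptors differed less. All 7 measured receptors had a difference below 0. The median of all genes was below 0 too (−0.03), and the share of all genes below 0 was not counted. In 3 receptors, Tnfrsf9, Tnfrsf18 and Tnfrsf8, every knockout array lay below every wild-type array. Both ligands had a difference slightly above 0, within the spread of the arrays. Among all genes, 10.4% had knockout arrays all below the wild-type arrays and 2.88% had them all above. Because these differences chose the genes, nothing is read from that comparison. The count of 3 members was 5 without knockout 2, when Tnfrsf1a and Tnfrsf1b joined, and also 5 without wild type 1, when Tnfrsf4 and Tnfrsf14 joined. A group of 2 arrays separates more easily, and the share of all genes was not counted there, so nothing is read from the rise. In these bulk cultures, fewer cells carrying a receptor and less receptor mRNA per cell cannot be told apart.

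**Figure D1:**
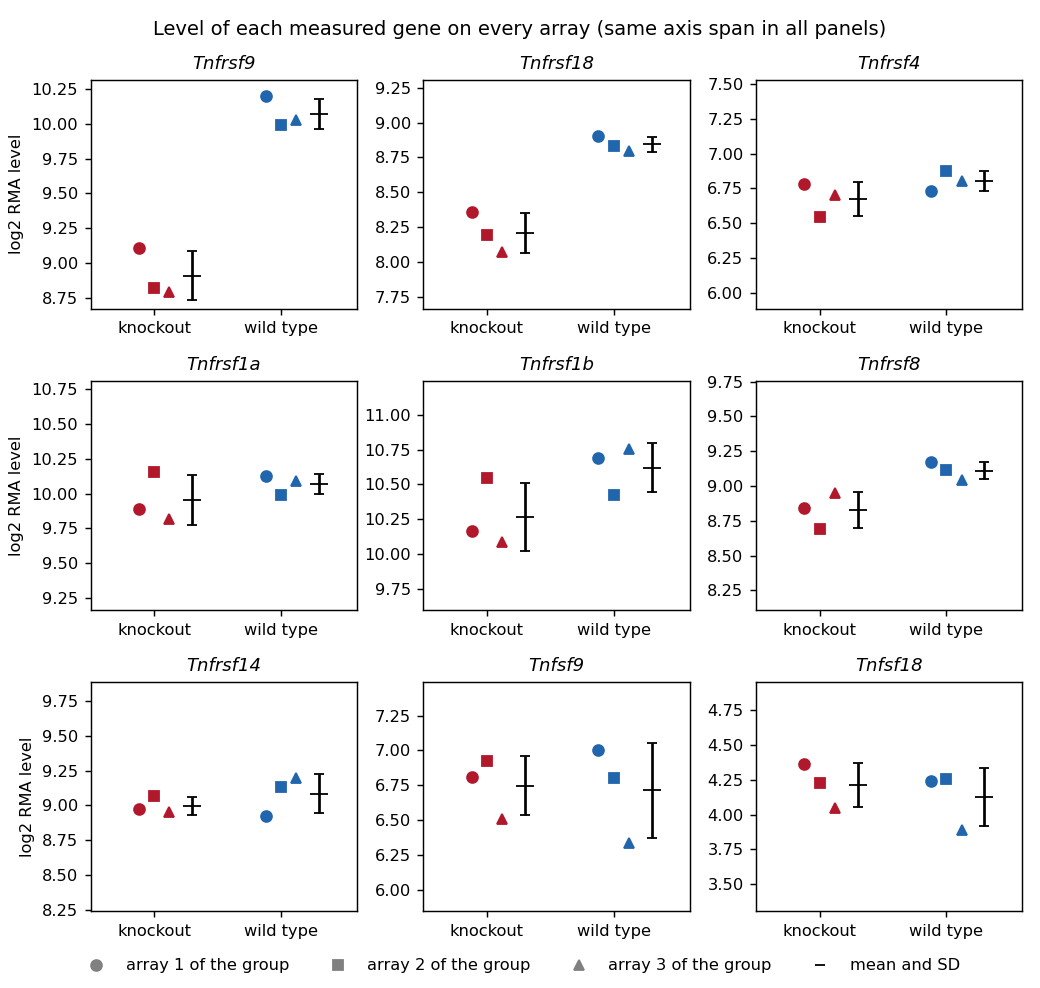
Log2 RMA level (vertical axis, the same span in each panel) of the 9 measured genes on the 3 knockout arrays (red) and the 3 wild-type arrays (blue), with the group mean and SD in black. Tnfrsf9, Tnfrsf18 and Tnfrsf8 separate the groups, with gaps of 0.88, 0.44 and 0.10, while the other 6 genes overlap.

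Tnfrsf9 encodes 4-1BB, an inducible costimulatory receptor that signals through TRAF adaptors. Its level was 9.11, 8.82 and 8.79 on knockout arrays 1 to 3 and 10.20, 9.99 and 10.03 on wild-type arrays 1 to 3. The groups were far apart: the highest knockout array lay 0.88 below the lowest wild-type array. The means were 8.91 ± 0.18 and 10.07 ± 0.11 (SD, n = 3 each), a log2 difference of −1.16 with a standard error of 0.11, or 2.24-fold lower. This was the third largest difference in size among the 14860 genes.

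Tnfrsf18 encodes GITR, a receptor best known from regulatory and activated T cells, and its gene neighbours Tnfrsf4 on chromosome 4. Its level was 8.36, 8.19 and 8.07 on the knockout arrays and 8.90, 8.83 and 8.80 on the wild-type arrays. The groups again did not overlap, and the gap between them was 0.44. The means were 8.21 ± 0.15 and 8.84 ± 0.05 (SD, n = 3 each), a log2 difference of −0.64 with a standard error of 0.09, or 1.55-fold lower. In size the difference stood in place 95 among all genes.

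Tnfrsf8, the gene of CD30, a receptor of activated lymphocytes and of some lymphomas, showed a smaller separation. Its level was 8.84, 8.69 and 8.95 on the knockout arrays and 9.17, 9.11 and 9.05 on the wild-type arrays. Knockout 3 came within 0.10 of wild type 3. The log2 difference was −0.28 with a standard error of 0.09, or 1.22-fold lower.

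Tnfrsf1b, the gene of TNFR2, differed by −0.36 with a standard error of 0.14, but its groups overlapped. Its level was 10.16, 10.55 and 10.09 on the knockout arrays and 10.69, 10.42 and 10.75 on the wild-type arrays. Knockout 2 lay above wild type 2, and the spread within each genotype (SD of 0.25 and 0.18) was wide beside the difference. Tnfrsf1a, the gene of TNFR1, read 9.89, 10.16 and 9.82 in knockout cells and 10.13, 9.99 and 10.09 in wild-type cells. Its groups overlapped too, and the difference of −0.11 was close to its standard error of 0.10.

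Tnfrsf4, the gene of OX40, lies beside Tnfrsf18 but did not separate the genotypes. It read 6.78, 6.54 and 6.70 in knockout cells and 6.73, 6.87 and 6.80 in wild-type cells, differing by −0.13 (standard error 0.09). Knockout 1 exceeded wild type 1. Tnfrsf14, the gene of HVEM, which binds LIGHT and BTLA, read 8.97, 9.07 and 8.95 against 8.92, 9.13 and 9.20. The lowest of its 6 values was a wild-type array, and the mean difference was −0.09 (standard error 0.09).

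The ligands showed the widest spread between arrays for Tnfsf9 and a level below the background mark for Tnfsf18. Tnfsf9, which encodes the ligand of 4-1BB, read 6.81, 6.92 and 6.51 in knockout cells and 7.00, 6.80 and 6.33 in wild-type cells. The difference of 0.03 had a standard error of 0.18, and its sign turned without knockout 2 (−0.06), without wild type 3 (−0.16) or when the first principal component's sides entered the model (−0.05). Tnfsf18, which encodes the ligand of GITR, read 4.37, 4.23 and 4.05 against 4.24, 4.25 and 3.89. Its difference was 0.09 with a standard error of 0.13, and −0.03 without wild type 3. The lowest value of either group was the array numbered 3 for both ligands. Wild-type numbers follow listing order, so a shared number does not pair arrays of the 2 genotypes.

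**Figure D2:**
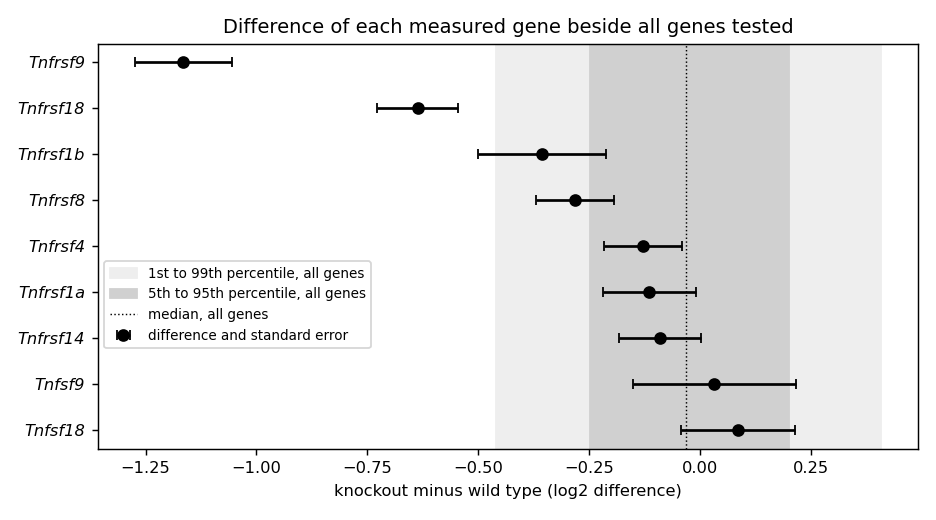
Knockout minus wild-type difference on the log2 scale (horizontal axis) of each measured gene, with its standard error, over the central ranges of all 14860 genes in grey. Tnfrsf9 at −1.16 and Tnfrsf18 at −0.64 lie beyond the 1st percentile of all genes (−0.46), and Tnfrsf1b and Tnfrsf8 lie between the 1st and the 5th percentile (−0.25).

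The differences of the 9 members had a median of −0.13, beside −0.03 for all genes. Over all genes the 5th and 95th percentiles were −0.25 and 0.20. The 7 receptor differences stayed below 0 when each array was centred on its median, after a further quantile normalisation and in the other settings run. Some came close to 0: with array weights Tnfrsf14 was at −0.006 (standard error 0.09) and Tnfrsf1a at −0.04 (standard error 0.10). Because these differences chose the members, nothing is read from their median or from the kept sign. Tnfrsf9 ranged from −1.27 to −1.10 over the settings run, and Tnfrsf18 from −0.71 to −0.57.

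Within each genotype, some of the genes deviated on the same arrays. Subtracting each gene's genotype mean removes the contrast that chose the set, and leaves 6 deviations per gene that sum to 0 within a genotype. Among the 36 pairs of members, the closest by Pearson r over these 6 arrays were Tnfrsf1a with Tnfrsf1b (0.95), Tnfrsf9 with Tnfrsf18 (0.91) and Tnfsf9 with Tnfsf18 (0.88), the last of which lies below the background mark. The receptors 4-1BB and GITR were not separate from the ligands. Tnfrsf18 went with Tnfsf18 at 0.76 and with Tnfsf9 at 0.58. Tnfrsf9 went with Tnfsf18 at 0.59 and with Tnfsf9, the ligand of 4-1BB, at 0.42. Without the subtraction, r of these receptor and ligand pairs ran from −0.16 to 0.09. The highest r of Tnfrsf4 and of Tnfrsf8 was the 0.45 between them, and that of Tnfrsf14 was 0.28, with Tnfrsf1b. Tnfrsf4 ran opposite to Tnfrsf1a, with r = −0.86, and to Tnfrsf1b, with r = −0.84. These values are a description of 6 arrays normalised together, picked out after they were seen, with no test.

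For Tnfrsf9 the deviations were 0.20, −0.09 and −0.12 on the knockout arrays and 0.12, −0.08 and −0.04 on the wild-type arrays. Those of Tnfrsf18 were 0.15, −0.01 and −0.14 in knockout cells and 0.06, −0.01 and −0.05 in wild-type cells. Array 1 of each genotype was the highest for both genes, though the shared number pairs no arrays. Tnfrsf1a and Tnfrsf1b instead deviated most on knockout 2, by 0.20 and 0.28, where Tnfrsf9 deviated by −0.09.

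**Figure D3:**
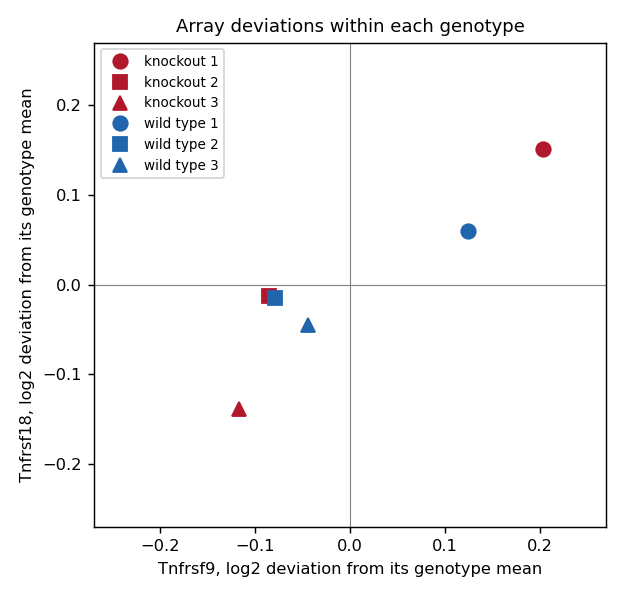
Deviation of each array from its genotype's mean on the log2 scale, for Tnfrsf9 (horizontal axis) and Tnfrsf18 (vertical axis), with knockout arrays in red and wild-type arrays in blue. Knockout 1 and wild type 1 are high for both genes and the other 4 arrays are low for both (r = 0.91 over 6 arrays).

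Among 285 genes above the background mark with an SD of at least 0.3 over the 6 arrays, Tnfrsf18 had the pattern most like Tnfrsf9. Pearson r over the 6 arrays was 0.99, and among these 285 genes Tnfrsf18 also came first by the deviations within genotypes. With SDs of 0.15 and 0.05 within genotypes, Tnfrsf18 passed the SD filter only through its genotype difference. Its first place within genotypes is therefore not separate from the contrast that chose it. Next by r were Adgre1, a macrophage surface antigen (0.98), Csn2, beta-casein (0.97), Rcn3, a reticulocalbin that binds calcium (0.97), and Vat1l (0.96). The most opposite were Selp, P-selectin (−0.98), Atp10d (−0.97), Maob, a monoamine oxidase (−0.96), Tmem47 (−0.96) and Kif21a, a kinesin (−0.93). All 10 had groups that did not overlap, so r over the 6 arrays mostly carries the genotype difference. With the deviations within genotypes, r was 0.64 for Adgre1, 0.39 for Csn2, −0.01 for Rcn3 and −0.38 for Vat1l. Of the opposite genes it was −0.39 for Selp, −0.40 for Atp10d, −0.11 for Maob and −0.51 for Tmem47, and for Kif21a the sign turned, to 0.57. Of the 10 genes, 3 were also chosen by Spearman rho and 1 by the within-genotype deviations.

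By position, 6 of the 10 genes lie on mouse chromosome 4 in the RefSeq gene table, where Tnfrsf4 and Tnfrsf18 are neighbours and so are Tnfrsf1b and Tnfrsf8 among the tested genes. The genes next to Tnfrsf9 were Park7, which differed by −0.03 (limma, adjusted p = 0.970), and the clock gene Per3, which differed by 0.10 (limma, adjusted p = 0.846). Sdf4, on the other side of Tnfrsf4 from Tnfrsf18, differed by −0.20 (limma, adjusted p = 0.621). None of these flanking genes passed the test, and they were chosen by position after the members' values were seen.

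The sequences around the start sites of the 3 receptor genes whose groups did not overlap are shown. RefSeq (GRCm38.p6) gave a window of 250 bases before to 50 after the start for 9 of the 10 genes, all but Tnfsf9, with 2 start sites for Tnfrsf9. Capitals mark 3 motifs, searched on both strands: the kappaB consensus of NF-kB, the AP-1 motif TGANTCA and the STAT motif TTCNNNGAA. The motifs were chosen after the Tnfrsf9 windows had been read. The first Tnfrsf9 window is chr4:150919905-150920204 and the second chr4:150927749-150928048, both on the plus strand. That of Tnfrsf18 is chr4:156026072-156026371, plus strand, and that of Tnfrsf8 chr4:145315115-145315414, minus strand.
Tnfrsf9, first start: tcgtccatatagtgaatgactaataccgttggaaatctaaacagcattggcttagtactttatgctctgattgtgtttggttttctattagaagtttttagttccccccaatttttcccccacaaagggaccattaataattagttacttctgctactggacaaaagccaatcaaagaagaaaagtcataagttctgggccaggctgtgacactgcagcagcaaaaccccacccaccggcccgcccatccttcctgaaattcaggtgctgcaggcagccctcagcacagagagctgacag
Tnfrsf9, second start: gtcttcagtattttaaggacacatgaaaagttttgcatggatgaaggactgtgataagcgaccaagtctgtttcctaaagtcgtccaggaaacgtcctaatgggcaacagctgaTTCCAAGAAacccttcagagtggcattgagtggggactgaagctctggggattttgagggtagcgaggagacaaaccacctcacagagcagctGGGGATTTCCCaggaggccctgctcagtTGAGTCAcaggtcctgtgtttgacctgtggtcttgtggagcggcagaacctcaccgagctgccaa
Tnfrsf18: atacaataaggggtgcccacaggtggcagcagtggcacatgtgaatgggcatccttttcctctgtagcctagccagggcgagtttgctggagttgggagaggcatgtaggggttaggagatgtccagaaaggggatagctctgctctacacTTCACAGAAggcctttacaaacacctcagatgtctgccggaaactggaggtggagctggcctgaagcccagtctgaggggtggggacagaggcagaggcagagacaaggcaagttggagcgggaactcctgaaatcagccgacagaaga
Tnfrsf8: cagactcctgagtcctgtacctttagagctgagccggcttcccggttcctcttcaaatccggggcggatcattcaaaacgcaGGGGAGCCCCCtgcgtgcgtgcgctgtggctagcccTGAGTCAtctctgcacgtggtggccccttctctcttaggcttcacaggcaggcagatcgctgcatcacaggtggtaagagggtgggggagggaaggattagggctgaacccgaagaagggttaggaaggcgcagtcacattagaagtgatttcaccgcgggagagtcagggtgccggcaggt

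The second Tnfrsf9 window held overlapping kappaB matches from −43 to −33, counted from the start site, an AP-1 match from −15 to −9 and a STAT match from −136 to −128. The first Tnfrsf9 window held none of the 3 motifs. Tnfrsf8 held overlapping kappaB matches from −168 to −158 and an AP-1 match from −132 to −126, and Tnfrsf18 held only a STAT match, from −99 to −91. Of the windows not shown, Tnfrsf1a and Tnfrsf1b held a STAT match each, and Tnfrsf4, Tnfrsf14, Cd27 and Tnfsf18 held none. Of 32851 windows of 300 bases in the table, 5.80% held the kappaB consensus, 7.81% the AP-1 motif and 8.30% the STAT motif. A match describes these letters only, and binding was not measured. Which Tnfrsf9 start site the array row reads was not given in the sources used here.

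The rest of the TNF system was read from 5 lists with 98 genes, of which 81 had a row. None passed limma after adjustment over all genes. At an unadjusted p under 0.05, 7 of the 81 were lower and 0 were higher, which is 8.64% lower beside 5.44% lower and 1.78% higher among all genes. The split depended on scaling: after median centring 7 were lower and 3 higher, beside 473 lower and 433 higher of all genes, and after quantile normalisation 7 and 2, beside 578 and 334.

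Among 16 other TNF receptors, 0 passed at an unadjusted p under 0.05, and the differences ran from −0.20 to 0.11 with a median of −0.06. Edar, the ectodysplasin receptor, differed by −0.20, Tnfrsf10b, the mouse TRAIL receptor, by −0.11, Tnfrsf17, the plasma cell receptor BCMA, by −0.14 and Tnfrsf19 by −0.10 (limma, adjusted p from 0.817 to 0.853). In that list 6 of 16 lay below the background mark, Edar, Tnfrsf17 and Tnfrsf19 among them. The count of 0 was 1 without wild type 2 and 1 with array weights. The list held no gene with a difference as large as that of Tnfrsf18, which belongs to the set chosen by these differences.

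Among 14 other TNF ligands, 2 were lower at an unadjusted p under 0.05. Tnfsf11, which encodes RANKL, the osteoclast factor, stood at 8.03 ± 0.11 against 8.31 ± 0.07, and Tnfsf13b, which encodes the B cell survival factor BAFF, at 6.94 ± 0.15 against 7.23 ± 0.11 (SD, n = 3 each). Their differences were −0.29 each (limma, adjusted p = 0.533 and 0.601). Tnfsf14, the gene of the HVEM ligand LIGHT, differed by −0.18 (limma, adjusted p = 0.732), and Cd40lg, the ligand of CD40, by 0.27 at a level below the background mark (limma, adjusted p = 0.697). The count in either direction, also 2, was 5 with array weights and 4 without knockout 1. It was 1 without knockout 2, knockout 3 or wild type 2.

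Among 22 adaptors and kinases, Traf1, a TRAF adaptor that binds 4-1BB and is itself induced by NF-kB, was the 1 gene lower at an unadjusted p under 0.05. Knockout arrays averaged 6.54 ± 0.06 and wild-type arrays 6.82 ± 0.09 (SD, n = 3 each), with no overlap and a difference of −0.28 (limma, adjusted p = 0.486). Cflar, the caspase-8 inhibitor, differed by 0.29 with overlapping groups (limma, adjusted p = 0.732). Rbck1 and Rnf31, subunits of the linear ubiquitin ligase, differed by −0.14 and −0.12 (limma, adjusted p = 0.795 and 0.808). The count in either direction, also 1, was 3 without wild type 2 or with array weights. It was 2 under either other scaling and 0 among genes above the median level.

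Among 14 NF-kB subunits and feedback genes, 2 were lower at an unadjusted p under 0.05. Nfkbie, which encodes an inhibitor that holds NF-kB in the cytoplasm, stood at 7.44 ± 0.02 against 7.67 ± 0.04, and Tnip1, a partner of the deubiquitinase A20, at 8.28 ± 0.06 against 8.51 ± 0.03 (SD, n = 3 each). Each differed by −0.23 with no overlap (limma, adjusted p = 0.488 and 0.538). The subunit gene Rel differed by 0.26 and Nfkbiz, a nuclear member of the inhibitor family, by −0.13 (limma, adjusted p = 0.756 and 0.842), with overlapping groups. Other genes that NF-kB induces differed by −0.10 (Nfkbia, its main inhibitor), −0.05 (Tnfaip3, the deubiquitinase A20), 0.08 (Bcl3) and 0.04 (Icam1, an adhesion molecule), with limma adjusted p from 0.892 to 0.953. These 4 were named after their values were seen. The list median was −0.07.

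Among 15 costimulators of the immunoglobulin family, a list that also holds inhibitory receptors and their ligands, 2 were lower at an unadjusted p under 0.05. Havcr2, which encodes TIM-3, a receptor of T cells and, in humans, of leukaemic stem cells, stood at 8.25 ± 0.08 against 8.66 ± 0.18, and Pdcd1lg2, which encodes PD-L2, at 5.94 ± 0.17 against 6.33 ± 0.14 (SD, n = 3 each). The differences were −0.41 and −0.39 (limma, adjusted p = 0.461 and 0.512). Pdcd1, which encodes PD-1, differed by −0.15 and Cd226, an activating receptor of NK and T cells, by 0.25, both below the background mark (limma, adjusted p = 0.752 and 0.724). The count in either direction, also 2, was 7 without knockout 3, 5 with array weights and 1 among genes above the median level. Without knockout 3 the 5 lists together had 7 lower and 5 higher genes of 81, beside 776 lower and 371 higher of all 14860 genes.

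**Figure D4:**
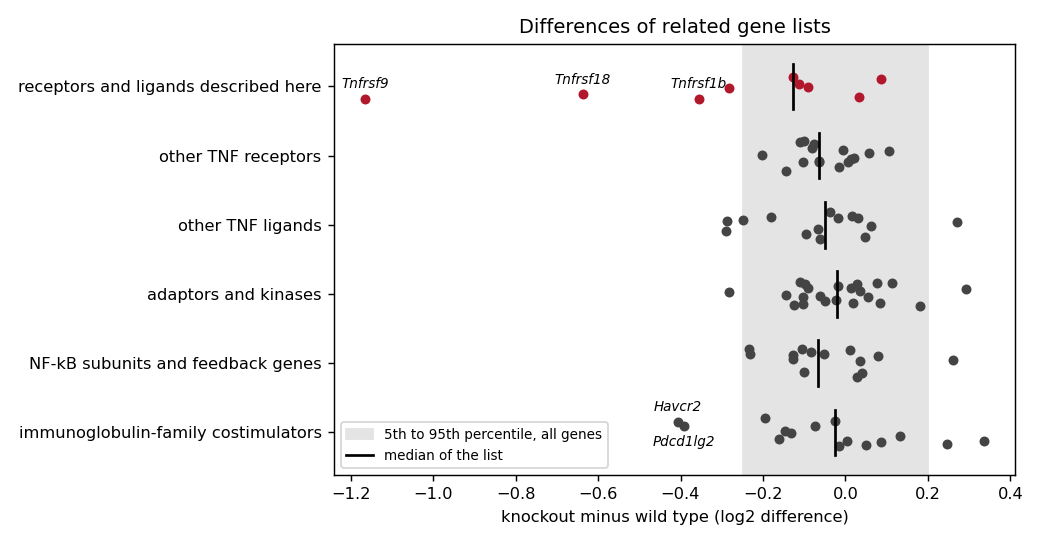
Knockout minus wild-type difference on the log2 scale (horizontal axis) of each measured gene of the described set (red) and of the 5 related lists (grey), with the list median as a black bar and the 5th to 95th percentile of all genes shaded. Tnfrsf9 and Tnfrsf18 lie apart from every gene of the related lists, whose lowest value is −0.41 (Havcr2). The described set was chosen by this same contrast, so nothing is read from that distance.

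Markers of the cells that could carry these receptors were read beside them. Of 6 measured T cell markers, 4 lay below the background mark, Cd3d at 4.84 in knockout and 4.94 in wild-type cells and Cd3g at 4.19 and 4.32 among them, and the list mean ran from 5.10 to 5.27 on the knockout arrays and from 5.12 to 5.49 on the wild-type arrays. Of 4 NK cell markers, 2 lay below the mark, with Ncr1 at 2.80 and 2.94, and the list mean ran from 4.91 to 5.02 and from 5.05 to 5.16. All 10 measured mast cell and basophil markers lay above the mark, with list means from 9.26 to 9.62 (knockout) and from 9.18 to 9.40 (wild type). Those for macrophages ran from 8.33 to 8.68 and from 8.58 to 8.96 (4 of 5 above the mark), and for eosinophils from 6.91 to 7.41 and from 7.13 to 7.52 (3 of 5). Dendritic cell markers ran from 7.28 to 7.41 and from 7.38 to 7.46 (5 of 6), and B cell markers from 5.67 to 5.83 and from 5.46 to 5.70 (3 of 4). Neutrophil markers ran from 11.17 to 11.38 and from 11.20 to 11.27 (5 of 5), and progenitor markers from 10.92 to 10.97 and from 10.89 to 10.95 (6 of 6).

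Single markers differed in both directions within these lists, except those of T and NK cells. All 6 measured T cell markers and all 4 NK cell markers had differences below 0, with list medians of −0.14 and −0.12. The median of all genes was also below 0 (−0.03), and 0 markers of either list had an unadjusted p under 0.05. Of 48 different markers measured, 0 passed limma after adjustment. At an unadjusted p under 0.05 there were 3 higher and 6 lower, which is 6.25% and 12.5% of the markers, beside 1.78% and 5.44% of all genes. The split depended on scaling, as it did for all genes. After median centring 6 markers were higher and 4 lower, beside 433 higher and 473 lower of all genes. After quantile normalisation 5 were higher and 4 lower, beside 334 and 578. The split of the markers also depended on wild type 1, without which 6 were higher and 2 lower, beside 231 higher and 559 lower of all genes.

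The lower markers came from the macrophage, eosinophil, dendritic cell, mast cell and neutrophil lists. Adgre1, the macrophage antigen named above, read 9.86, 9.67 and 9.56 on the knockout arrays and 10.49, 10.60 and 10.47 on the wild-type arrays. Its groups did not overlap, and the difference of −0.82 (standard error 0.10; limma, adjusted p = 0.0860) was larger in size than that of Tnfrsf18. Adgre1 passed the adjusted test among genes above the median level (0.0243), with a variance trend (0.0338) and with array weights (0.0285), and its adjusted p reached 0.381 with 1 array left out (knockout 2). The other macrophage markers differed by −0.31 (C1qa, a complement subunit), −0.14 (Cd68), −0.0005 (Mrc1, the mannose receptor) and 0.07 (Csf1r, the receptor of the macrophage growth factor). The eosinophil granule genes Epx and Prg2 differed by −0.78 and −0.55, with overlapping groups (limma, adjusted p = 0.540 and 0.672). H2-Ab1, an MHC class II chain, differed by −0.46, the basophil protease Prss34 by −0.47 and the neutrophil granule gene Lcn2 by −0.34 (limma, adjusted p from 0.577 to 0.659).

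The 3 higher markers were Fcer1a, Siglecf and Mpo. Fcer1a, which encodes the IgE-binding chain of the mast cell and basophil receptor, read 9.23, 8.97 and 9.67 on the knockout arrays and 8.49, 7.97 and 8.48 on the wild-type arrays. Its groups did not overlap, and the difference was 0.98 (standard error 0.21; limma, adjusted p = 0.392), opposite in sign to those of Tnfrsf9 and Tnfrsf18. It passed the adjusted test with the first principal component's sides in the model, and in no other setting run. Siglecf, a surface lectin of eosinophils, differed by 0.29 and Mpo, the myeloperoxidase of the neutrophil and progenitor lists, by 0.24 (limma, adjusted p = 0.538 each). The markers of this and the preceding paragraph were named for their p or to complete a list, after their values were seen. The part of any of these cells in the differences of Tnfrsf9 and Tnfrsf18 was not tested.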

How the data were processed

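The values are log2 expression levels as the authors deposited them for 6 arrays. Per the submitters' processing notes they came from RMA in Affymetrix Expression Console; no version or setting is given in the sources used here, and the scale was inferred from the range of the values. Per the labels' protocols, total RNA was fragmented and labelled with biotin by a whole-transcript kit. Scanner files were not used here, so no detection calls were made. Of 23332 rows, 14996 had 1 gene symbol in the platform annotation, 1019 had several and 7317 were unnamed here. A gene with several rows was represented by its brightest row on average, which left 14860 genes, and each measured member had 1 row.

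Differences (knockout minus wild type) were fitted with limma 3.58.1 in R 4.3.3, using lmFit and eBayes with no covariate or filter, and p-values were two-sided and Benjamini-Hochberg adjusted over all genes, at a threshold of 0.05. Knockout arrays carry the numbers of their titles and wild-type arrays were numbered in listing order, so numbers pair no arrays. The median standard error was 0.10, and the number of arrays limits the precision. The members and lists were chosen with earlier results of these data known. Of each list, up to 4 genes with the smallest p were named, as were the 5 genes with the highest and the 5 with the lowest r with Tnfrsf9, leaving out predicted, olfactory, vomeronasal and small RNA genes. Markers were named where a sentence needed them. Alternatives were other scalings, a level filter, mean rows, other variance models, array weights, the first principal component as a covariate and leaving out each array. Tested on simulated data with 14860 genes, 200 of them changed by 1 on the log2 scale, the fit recovered 86.6% over 20 runs with 4.71% false calls. The adjusted threshold is stricter when fewer genes change, so this share holds for that setting only. In these data 4 genes were called, and Csn2, which differed by −1.37, was not (limma, adjusted p = 0.0725). Python 3.11.15 with matplotlib 3.10.9 drew the figures.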

Additional observations from a re-analysis of the deposited data

How the results depend on the processing

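The number of genes called over all genes, 4, was 14 among genes above the median level, 9 with a variance trend and 16 with array weights, and ran from 0 to 1 with 1 array left out (1 without knockout 1, otherwise 0). The count of members with all knockout arrays below the wild-type arrays ran from 3 to 5 with 1 array left out. The share of all genes was not counted in those settings, where the smaller group separates more easily. The members' differences moved by less than the spread between replicates under median centring, quantile normalisation, array weights and the first principal component. A left-out array cannot move them by more than that spread when a group has 3 arrays, and neither mean rows nor the level filter can move a gene with 1 row. That filter left out Tnfrsf4, Tnfsf9 and Tnfsf18, which gave no value there. Tnfrsf9 stayed among the called genes under the scalings, the filter, mean rows, both other variance models and array weights, and lost its call with the first principal component's sides or without any 1 array. No gene of the 5 lists was called in any of the 14 settings. No paired analysis was possible because all wild-type titles end in the same numeral, which leaves nothing to match with the knockout numbers. Array data give no counting depth, and the members' rows could not be checked against background on the scanner files. Where a count moved, the cause was not tested, apart from the fewer genes or arrays that a filter or a left-out array brings.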
